A study of Homo sapiens with 6 samples.

Results

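The genes described here were TP63, its homolog TP73, and 6 genes whose proteins bind, modify or degrade p63, namely ITCH, WWP1, HIPK2, PPP1R13L, PPP1R13B and TP53BP2. They were chosen by name, as the silenced gene, its homolog and known partners of the p63 protein, with earlier results of these data known. They were 8 of 40488 genes in the deposited table. All 8 had enough counts to be tested. RNA was sequenced from SCC90, an established cell line from an HPV-positive oropharyngeal squamous cell carcinoma, in 3 libraries of cells transfected with an siRNA against ΔNp63 (siDNp63) and 3 libraries of cells transfected with a scrambled siRNA (siCTRL). Cells were taken 72 h after transfection, with siRNA at 10 nM according to the labels, while the methods of the study give another dose. Both groups were transfected, so cells without any siRNA were not part of the comparison, and all libraries came from this single cell line.

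The p53 family consists of transcription factors that bind closely related DNA sequences. TP63 is transcribed from a pair of promoters, giving TA forms with an N-terminal transactivation domain and ΔN forms without it, and ΔNp63 is the predominant form in the basal cells of stratified epithelia, where it maintains proliferative capacity and epithelial identity. The amount of p63 protein is set in part by ubiquitin ligases of the NEDD4 family and by kinases that mark it for degradation, and the activity of the family is modulated by the ASPP proteins, which bind its DNA-binding domain.

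The siRNA sequences and the start of the TP63 coding sequence are shown because the match between them tells which TP63 transcripts hold the listed sequence. The strand listed as antisense was found as written, on the coding strand, in 8 of 14 TP63 transcripts of the GENCODE annotation and in no other gene. The strand listed as sense had no match in either direction among 252835 annotated transcripts, and at least 3 mismatches in every TP63 transcript. A strand with the sequence of the mRNA, and not its complement, does not pair with it, so the strand names or sequences as listed may be wrong, and the match shows only where the listed letters occur. Capitals mark the bases that the listed antisense strand shares with the coding exon.
Listed antisense strand: acctggaaaacaatgcccaga
Listed sense strand: acgaggagccgttctaatc
ΔN first coding exon, chr3:189789801-189789842, plus strand, GRCh38: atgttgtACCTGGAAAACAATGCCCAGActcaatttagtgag
TA first coding exon, chr3:189631516-189631577, plus strand, GRCh38: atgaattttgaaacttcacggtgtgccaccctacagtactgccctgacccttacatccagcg
The match lay at chr3:189789808-189789828, wholly within the 42 coding bases of the ΔN exon, which begins 7 coding transcripts. The 62 coding bases of the TA exon, which begins 5 coding transcripts, did not hold it.

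Library totals lay between 35716277 and 52598831 expected counts in siDNp63 and between 38110314 and 48741346 in siCTRL. The labelled cell type was checked against 8 markers of squamous epithelium, whose summed level was 5699 to 5786 TPM (a level corrected for transcript length and scaled to the same total in every library) in siDNp63 and 4628 to 4665 TPM in siCTRL. KRT6A, KRT17, CDH1, EPCAM, SFN and ITGA6 were abundant, and most of the sum came from KRT6A (3565 to 3814 TPM in siDNp63 and 3038 to 3123 TPM in siCTRL). The basal keratins KRT5 (4.12 to 7.33 TPM in siDNp63 and 6.10 to 8.24 TPM in siCTRL) and KRT14 (1.41 to 1.59 TPM in siDNp63 and 0.374 to 0.780 TPM in siCTRL) were low. The 6 leukocyte markers summed to 10.0 to 11.7 TPM in siDNp63 and 10.6 to 12.5 TPM in siCTRL. The 6 fibroblast markers summed to 4.62 to 8.11 TPM in siDNp63 and 7.47 to 9.54 TPM in siCTRL, with PDGFRB at 0 in every library. Most of that sum came from COL1A1 (4.32 to 7.52 TPM in siDNp63 and 5.58 to 7.98 TPM in siCTRL). The 5 endothelial markers summed to 11.8 to 14.0 TPM in siDNp63 and 2.87 to 3.54 TPM in siCTRL, mainly from KDR and PECAM1. VWF was also higher, at 0.798 to 1.17 TPM in siDNp63 and 0.356 to 0.634 TPM in siCTRL. EMCN overlapped between the groups (0.248 to 0.657 TPM in siDNp63 and 0.304 to 0.540 TPM in siCTRL), and CDH5 stayed at or below 0.112 TPM. The part of these shifts in the results below was not tested. On the second principal component the siDNp63 replicate 1 library (39.1) stood apart from siDNp63 replicates 2 and 3 (−25.6 and −24.8) and from the siCTRL libraries (2.64 to 5.64). Neither the labels nor the methods state that the replicates were separate cultures, so the spread behind each p-value may be technical.

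TP63 and TP73, the pair of family members measured here, were both lower after silencing, and TP63 remained the most abundant of the 8 genes. The TP63 level was 121, 113 and 123 TPM in siDNp63 replicates 1, 2 and 3, against 353, 368 and 364 TPM in siCTRL replicates 1, 2 and 3. All siDNp63 libraries lay far below all siCTRL libraries, and neither group spread widely. Counts scaled between libraries with TMM (a trimmed mean of log ratios, giving the normalized counts used below) averaged 15136 ± 576 in siDNp63 and 43408 ± 976 in siCTRL (SD, n = 3 each), so that 34.9% of the siCTRL count remained (95% interval 32.7 to 37.2%). The log2 fold change, siDNp63 over siCTRL, was −1.52 (edgeR standard error 0.04, adjusted p = 7.59e-07), which placed TP63 at rank 10 by p among the 17257 genes tested. In bulk RNA, fewer cells expressing a gene and less RNA per cell cannot be told apart.

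TP73 encodes p73, which like p63 exists in TA and ΔN forms and can form mixed tetramers with p63. Its level was 6.41, 8.60 and 8.68 TPM in siDNp63 replicates 1, 2 and 3, against 13.04, 10.7 and 11.3 TPM in siCTRL replicates 1, 2 and 3. The groups did not overlap, and both the lowest and the highest library were a replicate 1. The log2 fold change of the counts was −0.48 (standard error 0.12, edgeR adjusted p = 0.0151), with 1087 ± 164 normalized counts in siDNp63 and 1520 ± 148 in siCTRL (SD, n = 3 each). This fell short of the test without siCTRL replicate 1 (−0.41, edgeR adjusted p = 0.076) and without siCTRL replicate 3 (−0.50, edgeR adjusted p = 0.057), and passed it without siDNp63 replicate 1 (−0.36, edgeR adjusted p = 0.0097). TP73 shares 633 exonic bases, 9.35% of its exonic sequence, with TP73-AS1 on the opposite strand, which had a mean of 1488 expected counts. The methods of the study give default options for kallisto, which do not use strand, so reads of the shared stretch cannot be told apart by strand.

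TP73 had a larger share of the summed TPM of TP63 and TP73 in every siDNp63 library, although its own level was lower. TP63, the siRNA target, made up most of this sum and fell more than TP73. The larger share and its p therefore follow from the silencing and are no evidence of a gain of TP73. The share was 5.03, 7.10 and 6.59% in siDNp63 replicates 1, 2 and 3, against 3.56, 2.82 and 3.00% in siCTRL replicates 1, 2 and 3. The groups did not overlap, with a difference of 3.12 percentage points between the means. With 3 libraries against 3 there cannot be a two-sided exact permutation p below 0.1, and p = 0.1 was the value obtained (0.15 after Benjamini-Hochberg adjustment over 3 shares).

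**Figure D1:**
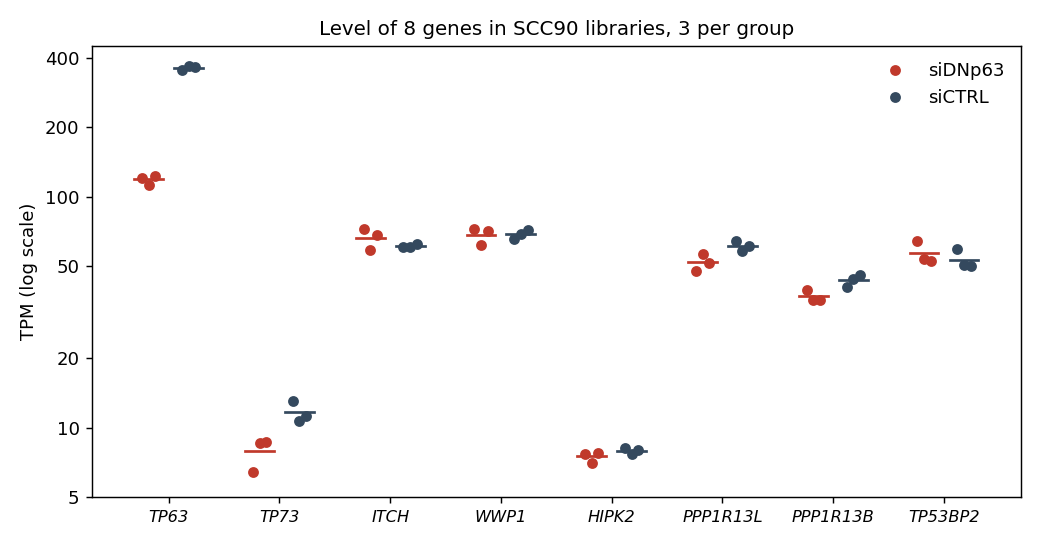
Level in TPM (log axis) of the 8 genes in the 3 siDNp63 (red, left of each pair) and 3 siCTRL (dark, right) libraries, with a line at each group mean. TP63 lies between 113 and 123 TPM in siDNp63, against 353 to 368 TPM in siCTRL, while ITCH, WWP1, HIPK2 and TP53BP2 overlap between the groups.

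Across the whole table, 33.6% of the genes tested were called at an edgeR adjusted p under 0.05, with 15.2% lower and 18.4% higher in siDNp63. Of the 8 genes, 6 were called, 3 lower (TP63, TP73 and PPP1R13B) and 3 higher (ITCH, WWP1 and TP53BP2), while HIPK2 and PPP1R13L were not. TP63 itself was the target of the siRNA, and without it 5 of 7 were called. The 8 genes were chosen with earlier results of these data known, so their counts beside the all-gene shares are only a description. With an absolute log2 fold change over 1 in addition, which 4.06% of genes passed (1.71% lower and 2.35% higher), TP63 alone was called. For 6 of the 8 genes the normalized counts of siDNp63 lay wholly above or below those of siCTRL, as they did for 49.4% of all genes tested. The median log2 fold change was −0.03 over the 8 genes and −0.02 over all genes. Scaling by library size alone in place of TMM moved the all-gene median to −0.11 and the share of higher genes among those called to 36.1%, against 54.7% with TMM. Under that scaling WWP1 was the only one of the 6 calls to be lost (0.09, edgeR adjusted p = 0.11).

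ITCH and WWP1, HECT-type ubiquitin ligases of the NEDD4 family that mark p63 for degradation, had slightly more reads after silencing but overlapped between the groups in TPM. ITCH had 8004, 7370 and 7591 normalized counts in siDNp63 replicates 1, 2 and 3, against 6565, 6271 and 6551 in siCTRL replicates 1, 2 and 3, and the log2 fold change was 0.24 with a standard error of 0.04 (edgeR adjusted p = 0.00384). Its level in TPM was 72.2, 58.6 and 68.2 in siDNp63, against 60.6, 60.8 and 62.5 in siCTRL. The counts did not overlap, but siDNp63 replicate 2 had the lowest ITCH level of all libraries in TPM. With an offset for the transcript length implied by the deposited values the log2 fold change was 0.17 and the call ended (edgeR adjusted p = 0.11), as it did by limma on log2(TPM + 1) (0.11, adjusted p = 0.38).

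WWP1, which also ubiquitinates several other transcription factors, had 6707, 6092 and 6331 normalized counts in siDNp63 replicates 1, 2 and 3, against 5600, 5730 and 5563 in siCTRL replicates 1, 2 and 3. Its log2 fold change by counts was 0.18 (standard error 0.04, edgeR adjusted p = 0.0167). In TPM the values were 72.3, 61.6 and 71.3 in siDNp63, against 65.5, 68.8 and 71.8 in siCTRL. The groups overlapped completely in TPM, with a log2 difference of −0.01 by limma (adjusted p = 0.94), and the length offset gave 0.05 (edgeR adjusted p = 0.63). ITCH made up 49.97, 48.7 and 48.9% of the summed TPM of ITCH and WWP1 in siDNp63 replicates 1, 2 and 3, against 48.1, 46.9 and 46.6% in siCTRL replicates 1, 2 and 3. The shares did not overlap, and the difference of 2.03 percentage points had the smallest two-sided exact permutation p possible, 0.1 (adjusted 0.15). With normalized counts in place of TPM that difference was 1.13 percentage points.

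HIPK2 encodes a nuclear kinase that phosphorylates p53-family proteins and has been tied to degradation of ΔNp63 after DNA damage. It had 3505, 3206 and 3453 normalized counts in siDNp63 replicates 1, 2 and 3, against 3411, 3244 and 3287 in siCTRL replicates 1, 2 and 3. The groups overlapped, and the log2 fold change of 0.03 had a 95% interval of −0.08 to 0.14 (edgeR adjusted p = 0.646). In TPM it was the least abundant of the 8 genes, with 7.67, 7.05 and 7.79 in siDNp63 and 8.16, 7.67 and 7.97 in siCTRL.

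The ASPP genes went in different directions by counts. PPP1R13L, PPP1R13B and TP53BP2 encode iASPP, ASPP1 and ASPP2, proteins with ankyrin repeats and an SH3 domain, of which iASPP inhibits and the others stimulate transcription of apoptotic genes by the p53 family. PPP1R13B had 2107, 2368 and 2258 normalized counts in siDNp63 replicates 1, 2 and 3, against 2585, 2769 and 2591 in siCTRL replicates 1, 2 and 3, and the log2 fold change was −0.24 with a standard error of 0.05 (edgeR adjusted p = 0.0119). Its level was 39.5, 35.8 and 35.7 TPM in siDNp63, against 40.8, 43.9 and 45.8 TPM in siCTRL. It was lower without overlap on both scales, although the adjusted p was 0.11 with the length offset in edgeR and 0.050, on the other side of the threshold, by limma on log2(TPM + 1). Without siCTRL replicate 2 the edgeR adjusted p was 0.069.

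TP53BP2 had 4888, 4653 and 4603 normalized counts in siDNp63 replicates 1, 2 and 3, against 3975, 3896 and 4120 in siCTRL replicates 1, 2 and 3. Its log2 fold change was 0.24 (standard error 0.04, edgeR adjusted p = 0.00317). In TPM the groups overlapped, with 64.6, 53.9 and 52.7 in siDNp63 and 59.3, 50.8 and 50.02 in siCTRL, and in both groups replicate 1 was the highest. The call ended with the length offset (0.15, edgeR adjusted p = 0.27) and by limma on log2(TPM + 1) (0.09, adjusted p = 0.55).

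PPP1R13L had 859, 928 and 837 normalized counts in siDNp63 replicates 1, 2 and 3, against 996, 888 and 921 in siCTRL replicates 1, 2 and 3, and the groups overlapped. Its log2 fold change was −0.10 (95% interval −0.26 to 0.07, edgeR adjusted p = 0.332). In TPM the values were 47.7, 56.6 and 51.9 in siDNp63 and 64.1, 58.0 and 61.3 in siCTRL, without overlap, but limma on log2(TPM + 1) did not call the difference of −0.23 (adjusted p = 0.065). As a share of the summed TPM of the 3 ASPP genes, PPP1R13L took 31.4, 38.7 and 37.0% in siDNp63 replicates 1, 2 and 3, against 39.0, 38.0 and 39.0% in siCTRL replicates 1, 2 and 3. The difference of −2.96 percentage points (two-sided exact permutation p = 0.2, adjusted 0.2) was −0.83 without siDNp63 replicate 1.

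**Figure D2:**
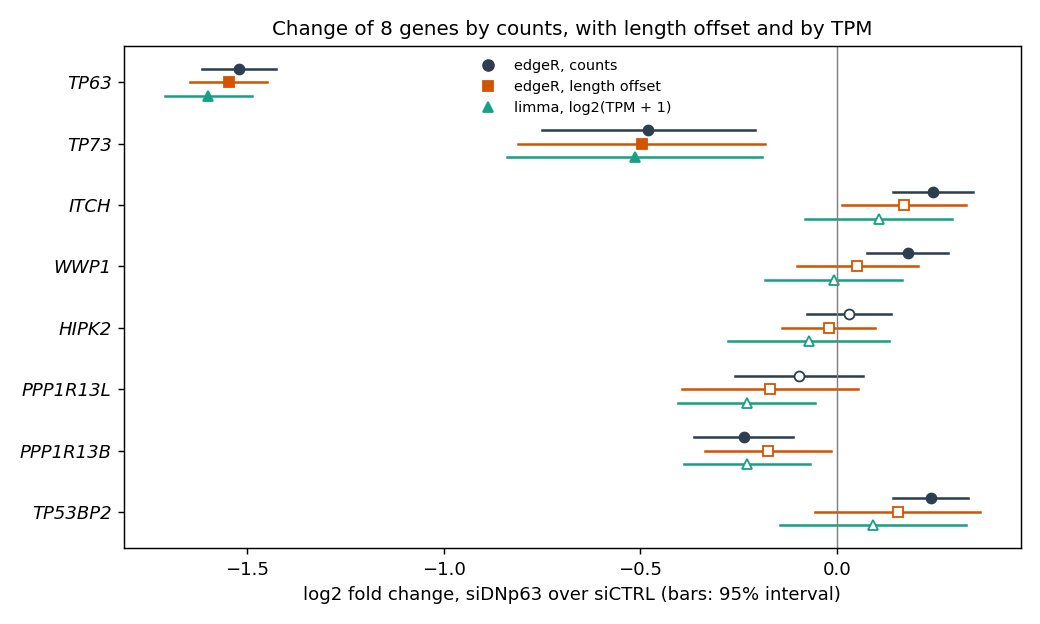
Log2 fold change of each gene, siDNp63 over siCTRL, with its 95% interval, from edgeR on counts (circles), edgeR with a length offset (squares) and limma on log2(TPM + 1) (triangles). Filled symbols have an adjusted p under 0.05, and only TP63 and TP73 are filled in all 3 fits, while WWP1 lies at 0.18 by counts and −0.01 by TPM.

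Ordered by mean TPM, TP63 came first in both groups, at 118.9 in siDNp63 and 361.7 in siCTRL. It exceeded the next gene, WWP1, 1.74-fold in siDNp63 and 5.26-fold in siCTRL. In siDNp63, WWP1 (68.4 TPM), ITCH (66.3), TP53BP2 (57.0) and PPP1R13L (52.1) followed, each overlapping with its neighbour, then PPP1R13B (37.0), and last TP73 (7.90) and HIPK2 (7.50), which overlapped with each other. In siCTRL the order was WWP1 (68.7 TPM), ITCH (61.3), PPP1R13L (61.1), TP53BP2 (53.4), PPP1R13B (43.5), TP73 (11.7) and HIPK2 (7.93), and the neighbours that overlapped were ITCH with PPP1R13L and PPP1R13L with TP53BP2. TP53BP2 and PPP1R13L thus changed places between the groups, but they overlapped in each.

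The deposited count divided by the deposited TPM is proportional to the mean effective length of the transcripts to which reads of a gene were assigned. Effective length is somewhat shorter than the transcript itself. The ratio was converted to bases with 454 genes that have a single annotated transcript of at least 2000 bases. The bases are therefore approximate for shorter transcripts and for very long ones, such as those of PPP1R13L and HIPK2. For TP63 the ratio averaged 4443 bases in siDNp63 and 4411 bases in siCTRL, a log2 difference of 0.03 (95% interval −0.01 to 0.07, limma adjusted p = 0.702). The longest annotated transcript is 4677 bases among the 8 with the siRNA match and 4944 bases among the 6 without it. Since these lengths are so close, the ratio does not separate ΔN from TA transcripts, and the TP63 counts sum both.

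HIPK2 averaged 15755 bases in siDNp63 and 15361 bases in siCTRL, beside a longest annotated transcript of 15329 bases, which both means slightly exceeded. PPP1R13L was at the other end, with 588 bases in siDNp63 and 562 bases in siCTRL although its longest transcript has 3131 bases. It had the fewest counts of the 8 genes, while its TPM overlapped with that of ITCH in siCTRL and lay below it in siDNp63 (52.1 against 66.3 TPM on average). WWP1 averaged 3259 bases in siDNp63 and 3017 bases in siCTRL, a log2 difference of 0.13 (95% interval −0.01 to 0.27, limma adjusted p = 0.702). Of 15617 genes with enough counts, 0 (0%) were called for a difference in implied length by limma, and 1156 had an unadjusted p under 0.05, among them 1 of the 8 genes, HIPK2 (0.05, unadjusted p = 0.0443, limma adjusted p = 0.646).

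**Figure D3:**
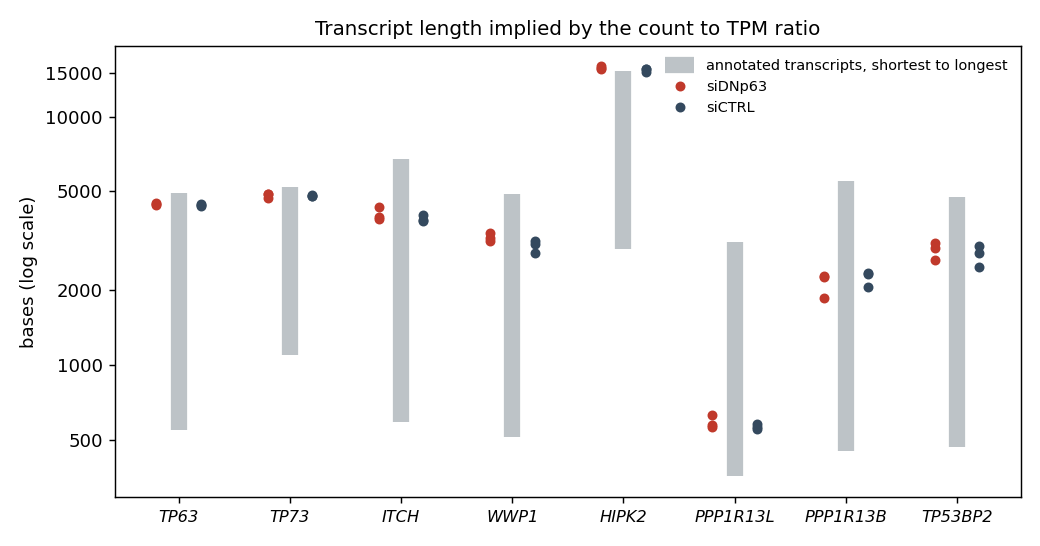
Approximate transcript length in bases (log axis) implied by the count to TPM ratio in each siDNp63 (red, left) and siCTRL (dark, right) library, beside the range of annotated transcript lengths of each gene (grey). HIPK2 lies at or just above the top of its range and PPP1R13L, at 588 bases in siDNp63 and 562 in siCTRL, near the bottom of its own.

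A list of 12 ligases and adaptors of the NEDD4 family, ITCH and WWP1 included, held 7 genes called higher and 0 called lower. Without ITCH and WWP1, 5 of 10 were called higher, and WWP2, NEDD4, SMURF1, HECW1 and NDFIP2 were not called. These counts stand beside 18.4% higher and 15.2% lower among all genes tested, with a median log2 fold change of 0.21 in the list and −0.02 over all genes. This list and those below were chosen with earlier results of these data known, so their counts are only a description. HECW2, a ligase that binds p73, had 472, 351 and 473 normalized counts in siDNp63, against 224, 223 and 219 in siCTRL, a log2 fold change of 0.96 (edgeR adjusted p = 9.6e-04). SMURF2, which targets receptors and SMADs of the TGF-β pathway, changed by 0.32, N4BP1, an inhibitor of ITCH, by 0.30, and NEDD4L, which ubiquitinates ion channels, by 0.25. The NEDD4L values of 4605, 4515 and 4493 in siDNp63 lay above the 3776, 3832 and 3823 in siCTRL. The remaining call, NDFIP1, an adaptor that activates these ligases, was named after its values were seen (0.18). Like ITCH and WWP1, most of these calls depended on the scale, and with the length offset 2 genes of the list, SMURF2 and HECW2, were called higher, and 1, SMURF2, by limma on log2(TPM + 1), which also called 1 lower (NDFIP2, another adaptor, −0.18). The HECW2 log2 fold change was 0.51 with the length offset (edgeR adjusted p = 0.0237).

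Among 16 other ubiquitin and SUMO regulators of p53-family proteins, 3 were higher and 2 lower, close to the 33.6% called among all genes, and the median log2 fold change was 0.04, beside −0.02 over all genes. MDM2, the ubiquitin ligase that restrains p53 and is itself one of its targets, had 15237, 13323 and 14028 normalized counts in siDNp63, against 10021, 9711 and 9792 in siCTRL. The groups were well apart, and the log2 fold change of 0.53 (edgeR adjusted p = 2.01e-04) was called on both scales. The study reported less p53 protein in SCC90 cells after ΔNp63 silencing, and p53 activity was not tested here. FBXW7, the substrate receptor of an SCF ligase that degrades ΔNp63, had 962, 891 and 900 normalized counts in siDNp63, against 1342, 1167 and 1245 in siCTRL (−0.45, edgeR adjusted p = 0.00166). This call ended with the length offset (−0.19, edgeR adjusted p = 0.25). USP28, a deubiquitinase that stabilises ΔNp63, changed by 0.23 (edgeR adjusted p = 0.0109) by counts and by 0.07 with the length offset (edgeR adjusted p = 0.72). UBE4B, a ubiquitin chain elongation factor, changed by −0.14 (edgeR adjusted p = 0.0183, and 0.052 with the length offset). USP7, the deubiquitinase of MDM2, named after its values were seen, changed by 0.16 (edgeR adjusted p = 0.0456, and 0.40 with the length offset). By limma on log2(TPM + 1) UBE4B was called at −0.24 (adjusted p = 0.035), while USP7 was not (0.04, adjusted p = 0.80).

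The list of 14 kinases and other modifiers held 5 higher and 2 lower genes, beside 18.4% higher and 15.2% lower among all genes, with a median log2 fold change of 0.06 in the list and −0.02 over all genes. HIPK3, a homolog of HIPK2, had 4341, 3749 and 4040 normalized counts in siDNp63, against 2032, 1994 and 2089 in siCTRL. Its log2 fold change of 0.99 (edgeR adjusted p = 1.32e-05) exceeded that of every other gene of this list, whereas HIPK2 was not called. PLK1, a mitotic kinase, changed by 0.35, CSNK1D by 0.22 and GSK3B by 0.19, the last pair being casein kinase and glycogen synthase kinase genes whose products phosphorylate many regulators for degradation. Scaling by library size ended the calls of CSNK1D (edgeR adjusted p = 0.052) and GSK3B (edgeR adjusted p = 0.071). Both were called with the length offset, at 0.34 for CSNK1D (edgeR adjusted p = 0.0021) and 0.39 for GSK3B (edgeR adjusted p = 0.01). By limma on log2(TPM + 1) they were called at 0.28 (adjusted p = 0.0098) and 0.33 (adjusted p = 0.036). The other 3 calls were named after their values were seen, namely the homolog HIPK1 (0.16) and the DNA damage kinases ATM (−0.27) and CHEK2 (−0.31), each of which ended with the length offset. By limma on log2(TPM + 1) CHEK2 was called at −0.35 (adjusted p = 0.042), while HIPK1 (adjusted p = 0.39) and ATM (adjusted p = 0.087) were not.

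Of 6 binding partners of the ASPP proteins, 1 was lower and 0 higher, beside 33.6% called among all genes, with a median log2 fold change of 0.03 in the list and −0.02 over all genes. BCL2, the anti-apoptotic mitochondrial protein to which ASPP2 binds, had 3813, 3649 and 3665 normalized counts in siDNp63, against 5581, 5124 and 5290 in siCTRL (−0.52, edgeR adjusted p = 8.44e-05). The groups did not overlap, and the call held with the length offset and by TPM. RELA, the NF-κB subunit, changed by 0.14 (edgeR adjusted p = 0.264), and by 0.23 without siDNp63 replicate 1 (edgeR adjusted p = 0.033). With the length offset RELA changed by 0.007 (edgeR adjusted p = 0.97), and by limma on log2(TPM + 1) by −0.06 (adjusted p = 0.72). The catalytic subunits of protein phosphatase 1 were not called, with log2 fold changes of 0.08 for PPP1CA and 0.04 for PPP1CC.

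**Figure D4:**
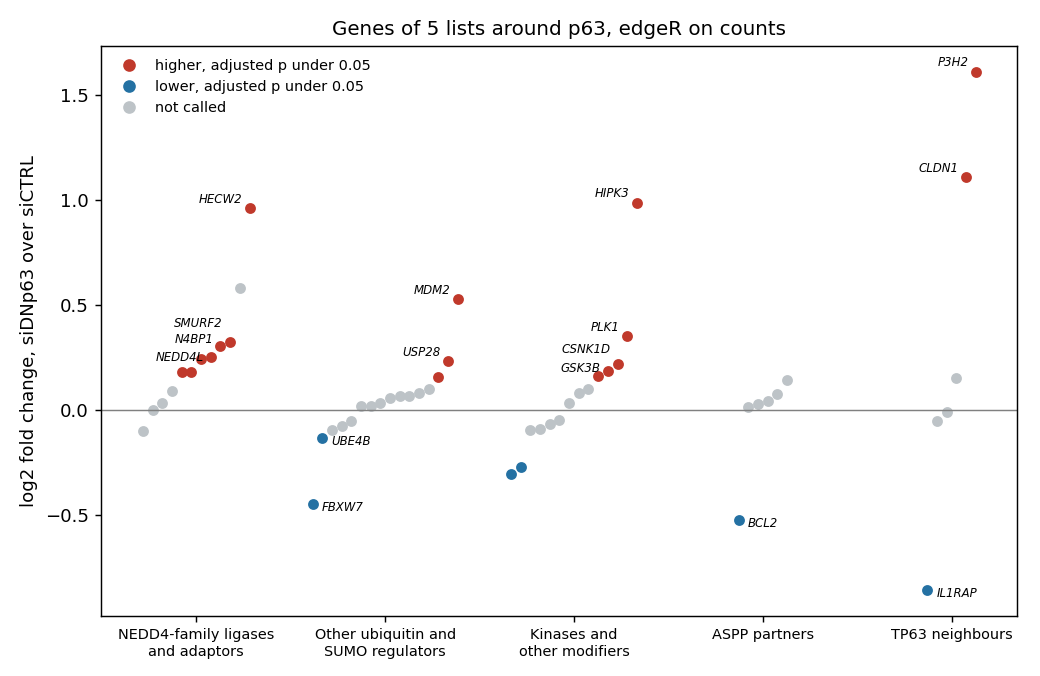
Log2 fold change, siDNp63 over siCTRL, from edgeR on counts for the tested genes of 5 lists, with genes called higher in red, called lower in blue and not called in grey. HECW2 (0.96), MDM2 (0.53), HIPK3 (0.99), BCL2 (−0.52), P3H2 (1.61) and IL1RAP (−0.86) lie farthest from 0 among the called genes of their lists in their direction.

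TP63 lies at chromosome 3, 189631389 to 189897276 of GRCh38. Of 7 neighbouring genes on 3q28, 6 were tested, 2 of which were higher and 1 lower, beside 18.4% higher and 15.2% lower among all genes. Their median log2 fold change was 0.07, beside −0.02 over all genes. P3H2, a collagen prolyl hydroxylase gene 59.5 kb beyond TP63, had 644, 560 and 555 normalized counts in siDNp63, against 187, 189 and 199 in siCTRL, a log2 fold change of 1.61 (edgeR adjusted p = 1.32e-05). CLDN1, a tight junction gene 408 kb beyond TP63, changed by 1.11. IL1RAP, the shared co-receptor of interleukin-1 family receptors, 617 kb beyond TP63, had 3752, 3528 and 3849 normalized counts in siDNp63, against 6747, 6448 and 6983 in siCTRL (−0.86, edgeR adjusted p = 1.17e-05). The other 3 neighbours tested, LPP (−0.05), TPRG1 (−0.01) and CLDN16 (0.15), were not called.

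The genes whose log2 normalized counts, scaled to library size, followed TP63 most closely over the 6 libraries, among 13882 genes, were GBP6 (Pearson r 0.9999), MR1 (0.9997), IRAK3 (0.9996), KCNH1 (0.9994) and CNOT9 (0.9993). The libraries fall into 2 separate groups, so r mostly reflects how little these genes spread within a group and is given as a description of likeness. Their log2 fold changes were −1.50 for GBP6, −1.14 for MR1, −1.12 for IRAK3, −1.002 for KCNH1 and −0.61 for CNOT9, so a close likeness did not require a change as large as that of TP63. None of the other 7 genes was among these 5.

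The remaining genes lie elsewhere in GRCh38. TP73 spans chromosome 1, 3652516 to 3736201, and TP53BP2 chromosome 1, 223779893 to 223845954. ITCH spans chromosome 20, 34363235 to 34511773, WWP1 chromosome 8, 86342547 to 86478420, and HIPK2 chromosome 7, 139561570 to 139777998. PPP1R13L spans chromosome 19, 45379638 to 45406349, and PPP1R13B chromosome 14, 103733195 to 103847575. Exons of WWP1 and PPP1R13B overlap genes on the opposite strand by 247 bases (RMDN1) and 474 bases (ZFYVE21), and reads in these stretches could be assigned to either gene, since kallisto was run with default options. ITCH shares 2901 exonic bases, 23.4% of its exonic sequence, with another gene model on the same strand that is absent from the deposited table.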

How the data were processed

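RNA-seq libraries were made from poly(A) RNA with a stranded kit. According to the submitters' processing notes, bcl2fastq 2.17.1.14 and kallisto 0.46.2 were used with build hg38, with no annotation release named in the sources used here. The expected counts deposited by the authors are kallisto's estimated counts per gene, not scaled between libraries. The TPM deposited by the authors are length-normalized levels that sum to 1000000 per library. All columns were mapped to samples by name.

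Expected counts were rounded to integers. Of 40488 genes, 35538 matched the name table and 4950 did not. The filter filterByExpr of edgeR 4.0.16, at a minimum count of 10, left 17257 genes, which were scaled by TMM and tested with edgeR's quasi-likelihood test with group as single term and Benjamini-Hochberg adjustment over all genes. Adjusted p-values, standard errors and intervals come from this fit unless limma 3.58.1 (R 4.3.3) is named. Implied length was tested with limma on log2(count/TPM), centred per library, where each library had 10 counts or more. Its conversion to bases was chosen after seeing the data. Shares were compared with two-sided exact permutation tests. The edgeR test was checked on simulated data.

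The 8 genes and the gene lists were chosen with earlier results of these data known. Of each list, up to 4 genes with the smallest p were named, together with any with an absolute log2 fold change over 1 that was called, and the 5 genes most like TP63 among those with a mean of at least 50 normalized counts. At these library totals (35716277 to 52598831), how far counting or the spread between libraries limits precision for the 8 genes was not tested. Alternatives were DESeq2 1.42.0, limma-voom, other scaling and filters, a replicate block, a length offset, TPM with pseudocounts of 1 and 0.1, fold thresholds, and leaving out each library.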

Additional observations from a re-analysis of the deposited data

How the results depend on the processing

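TP63 was called lower under every alternative. Genes called lower numbered 2626 in the reported fit, 4117 with library size scaling, 295 past a log2 fold of 1 in absolute value, and 220 with that fold and p under 0.005. Genes called higher numbered 3177 in the reported fit, 1668 and 1678 by limma on TPM with pseudocounts of 1 and 0.1, and 406 and 363 with the fold thresholds. Among the 8 genes, 1 was lower under each fold threshold, 0 were higher under each fold threshold, the length offset and both TPM fits, and WWP1 reversed to −0.00908 and −0.00923 in the TPM fits with pseudocounts of 1 and 0.1. Leaving out each library gave 2 to 3 lower of the 8 and 3 higher each time.

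In the NEDD4-family list 2 were higher with the length offset and 1 in each TPM fit, where 1 was lower. Of the other ubiquitin and SUMO regulators, 4 were lower with library size scaling, 1 with the replicate block, 0 with the length offset and 1 in each TPM fit, and 1 was higher with the length offset and in each TPM fit. Leaving out each library gave 1 to 4 lower (4 without siDNp63 replicate 1, and 1 without siDNp63 replicate 3, siCTRL replicate 1 or siCTRL replicate 3). Of the kinases, 5 were lower and 2 higher with library size scaling, 0 lower with the length offset and 1 in each TPM fit, and leaving out each library gave 1 to 2 lower (1 without siDNp63 replicate 3 or any siCTRL library). Of the ASPP partners, 0 to 1 were higher when each library was left out. Under both fold thresholds 0 genes of these 4 lists were called in either direction, and 0 TP63 neighbours were lower. Genes of shorter implied length numbered 0 in the reported fit, 2 with at least 50 counts, 2 with the mean of the middle 50% as centre and 0 to 2 when each library was left out, and longer ones 0 to 1. The ITCH share differed by 1.13 points with normalized counts. The cause of these differences was not tested.

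Libraries of equal replicate number showed no clear shared deviation, which cannot tell whether they were handled together. Correlations of deviations lay between −0.05 and 0.04 and were −0.01, 0.02 and 0.03 for equal numbers. With the replicate block 2175 genes were lower and 2777 higher, and the 6 calls among the 8 genes were kept. Small changes of the 8 genes are limited by 3 libraries per group from 1 cell line, and the calls of ITCH, WWP1, TP53BP2 and PPP1R13B ended with the length offset.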
